A study of Mus musculus with 4 samples.

Results

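Venous endothelial cells of the mouse lung were examined in 4 droplet-based scRNA-Seq libraries, and 318 of the 11846 barcodes that passed the quality limits were members. A barcode was taken as a venous endothelial cell (below, a venous cell) when it held 200 to 7500 genes, at most 10% mitochondrial UMIs (unique molecular identifiers, which count captured RNA molecules) and at least 1 UMI of *Cdh5*, the adhesion protein of endothelial junctions. It also needed a UMI of at least 2 of the 4 venous genes *Slc6a2*, *Bst1*, *Vegfc* and *Nr2f2*, fewer than 2 of the arterial genes *Gja5*, *Sema3g*, *Bmx* and *Dkk2*, fewer than 2 UMIs of *Ednrb*, which marks aerocytes, and no UMI of *Prox1*, *Ptprc* or *Col1a2*. Since the members were chosen on these measured UMIs, the levels of the rule's own genes are a description of the choice and not a finding.

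Veins and venules collect blood after the alveolar capillaries. In most organs, the venules are where leukocytes leave the blood: endothelial selectins stored in or made by these cells slow the leukocytes, integrin ligands such as VCAM-1 arrest them, and chemokine-binding receptors present the guiding signals. Their identity rests on the nuclear receptor COUP-TFII, encoded by *Nr2f2*, while Notch signaling promotes the arterial state.

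All mice were male wild-type C57BL/6, aged 2 to 3 months (young) or 22 months (aged). The labels give a food-restricted diet without naming an age group and the study's methods give it for the aged mice, so that diet and age cannot be told apart. Ventilated mice were anesthetized with ketamine and medetomidine, given buprenorphine, fitted with vascular lines and ventilated for 3 hours with pure oxygen, a high tidal volume and no positive end-expiratory pressure. The nonventilated mice were naive and had none of these procedures, so that ventilation cannot be told apart from anesthesia, surgery and oxygen. Each of the 4 groups was 1 library made from frozen left-lobe cells of 3 pooled mice, without replicates, and no difference between libraries could be tested.

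In the order used for every set of 4 values below (young nonventilated, young ventilated, aged nonventilated, aged ventilated), the libraries held 92, 59, 86 and 81 venous cells with 1231829, 878882, 1184881 and 1359090 UMIs in all. Levels are given as CPM, the UMIs of a gene per 1000000 UMIs summed over the cells. Intervals on ratios and shares are exact 95% counting intervals. They cover counting error only and not the spread between mice. Those on ratios take each UMI as independent, so that they leave out the spread between cells of a library as well. The words "rose" and "fell" stand for a ratio of at least 2, taken with 1 UMI added to each side, for genes that reached 50 CPM on average and 40 UMIs in total in the 2 libraries compared (the tested genes).

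The venous label was checked on genes that the rule did not use. *Vwf*, which encodes the clotting glycoprotein stored in Weibel-Palade bodies, stood at 1932, 1343, 1809 and 1628 CPM in venous cells, against 90.0 to 289.9 CPM in the remaining endothelial cells (fewer than 2 venous and 2 arterial genes and fewer than 2 *Ednrb* UMIs, mostly general capillary cells). Arterial cells held 538 to 871 CPM and aerocytes 28.8 to 192 CPM. *Selp*, encoding P-selectin, was at 594 to 2612 CPM in the 4 venous samples and at most 159.8 CPM in any other endothelial class. *Cpe*, encoding carboxypeptidase E, was at 167, 110.4, 54.9 and 77.3 CPM, against 0.525 to 3.3 CPM in the remaining cells. Arterial cells held up to 61.3 CPM of *Cpe*, above the lowest venous sample, and lymphatic cells 12.6 to 30.9 CPM. The arterial ligand gene *Efnb2* was lower in venous cells, with 52.3 to 142 CPM against 266 to 528 CPM in the remaining and 783 to 863 CPM in the arterial cells. The capillary gene *Gpihbp1*, whose product anchors lipoprotein lipase, was nevertheless at 554, 226, 611 and 427 CPM in venous cells, against 352 to 797 CPM in the remaining cells, while lymphatic cells held 189 to 354 CPM. A list of 8 general capillary genes summed to 4304, 3145, 4305 and 4029 CPM in venous and 5134, 3935, 4531 and 4985 CPM in the remaining cells. A list of 14 other venous markers, with *Vwf* the most abundant, summed to 4373, 3091, 3557 and 3428 CPM against 838, 734, 926 and 1001 CPM. *Ackr1*, also on the venous list, was at only 4.87 and 4.22 CPM in the young and aged nonventilated venous samples.

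**Figure D1:**
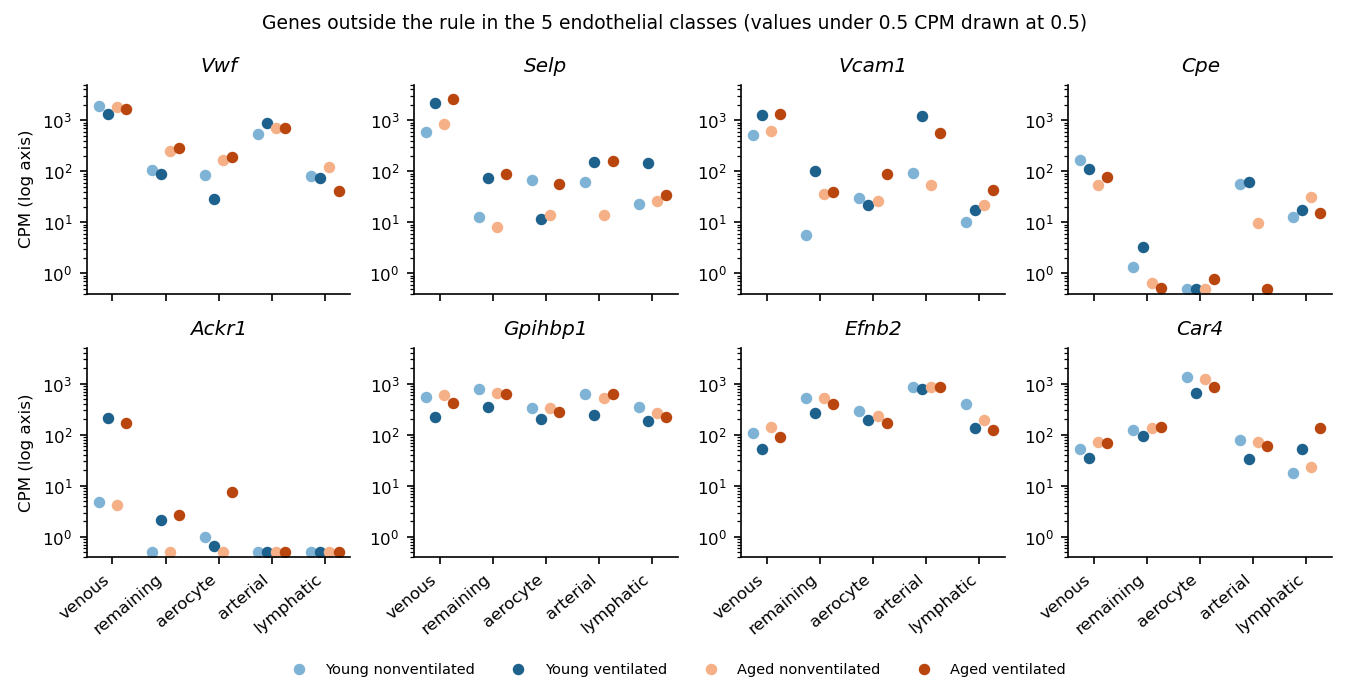
Levels (CPM, log axis) of 8 genes that the rule did not use, in the 5 endothelial classes; each point is 1 library, colored by group. *Vwf*, *Selp* and *Cpe* lie highest in the venous class in every library, *Ackr1* is above 10 CPM only in venous cells of the 2 ventilated libraries, and *Efnb2* and *Car4* lie lower in venous cells than in arterial cells and aerocytes, respectively.

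The label held less well for the members that entered through *Vegfc* and *Nr2f2* alone. These were 65 of the 318 members, and they held *Vwf* at 239.9, 112, 331 and 319.8 CPM, nearer to the remaining endothelial cells than to the other members. *Selp* was at 32.9, 29.1, 0 and 169 CPM in them. The other 253 members, with a UMI of *Slc6a2* (the norepinephrine transporter, which in lung is a venous marker) or of *Bst1* (an ectoenzyme of NAD metabolism), held *Vwf* at 2487, 1807, 2213 and 1809 CPM and *Selp* at 778, 2959, 1094 and 2951 CPM. Both kinds of member are kept together below, as the rule sets them, and are called venous cells by that rule.

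At equal depth the same split was seen cell by cell. With each cell thinned to 4000 UMIs (17 shallower members left out), *Vwf* was detected in 95.2%, 90.7%, 96.8% and 87.3% of the members with *Slc6a2* or *Bst1*, and in 37.5%, 23.1%, 61.1% and 62.5% of those with *Vegfc* and *Nr2f2* only. *Selp* was detected in 40.3%, 79.1%, 35.5% and 78.9% of the former and 4.17%, 7.69%, 0% and 12.5% of the latter. The latter numbered 24, 13, 18 and 8 cells, so that their shares are loosely set. Cells with *Selp* and cells with *Vcam1* overlapped: both genes were detected in 25.6%, 50%, 21.2% and 55.7% of all thinned members, and 1 or both in 43%, 73.2%, 52.5% and 77.2%. In aerocytes of the same depth, which should lack *Selp*, it was detected in 0.625% to 6.02% of the cells.

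**Figure D2:**
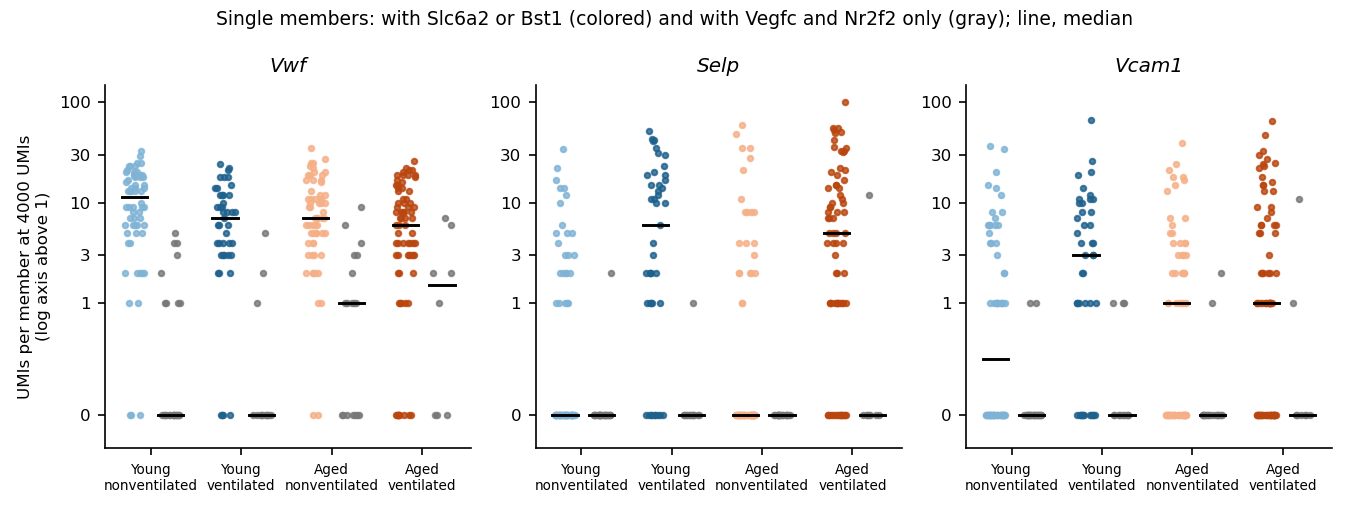
UMIs of *Vwf*, *Selp* and *Vcam1* in each venous cell after thinning to 4000 UMIs (log axis above 1), by library; colored points are members with *Slc6a2* or *Bst1*, gray points those with *Vegfc* and *Nr2f2* only, and black lines are medians. Cells with more than 10 UMIs of *Selp* are found in all 4 libraries and are more frequent in the 2 ventilated ones, while most gray points lie at 0 or 1.

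Venous cells made up 9.85% (interval 8.01 to 11.9) of the 934 endothelial barcodes that passed the same *Cdh5*, *Prox1*, *Ptprc* and *Col1a2* limits in the young nonventilated library. The share was 6.38% (4.89 to 8.15) of 925 in the young ventilated library. In aged mice it was 11.1% (8.97 to 13.5) of 775 without ventilation and 13.2% (10.6 to 16.1) of 615 with it. The young ventilated share was the lowest, and its counting interval lay apart from those of both aged libraries but met that of the young nonventilated library. When every barcode was thinned to 4000 UMIs before the rule was applied, the shares were 9.03%, 4.59%, 7.73% and 9.11%.

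Levels of the rule's own genes moved with the groups. *Slc6a2* stood at 672, 196, 512 and 578 CPM and *Bst1* at 117, 114, 82.7 and 122 CPM in the members. The lymphangiogenic growth factor gene *Vegfc* stood at 542, 241, 351 and 177 CPM and *Nr2f2* at 310.1, 291, 150.2 and 225 CPM. *Slc6a2* was thus lowest in the young ventilated members and *Vegfc* was lower in both ventilated libraries, so that fewer venous cells and fewer UMIs of these genes per cell cannot be told apart in the shares. Of the members, 33, 33, 37 and 35 held exactly 2 of the 4 genes, just inside the limit. Just outside it, 138, 138, 112 and 83 of the remaining endothelial cells held 1, with *Vwf* at 96.8, 165, 299.9 and 367 CPM, against 513, 494, 884 and 883 CPM in the members with 2. Venous cells were deeper than the remaining endothelial cells, with medians of 10976, 12528, 11352 and 13261 UMIs against 6659, 6440.5, 7179 and 7662. The part of depth in the choice of members was not tested beyond the thinned shares above.

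**Figure D3:**
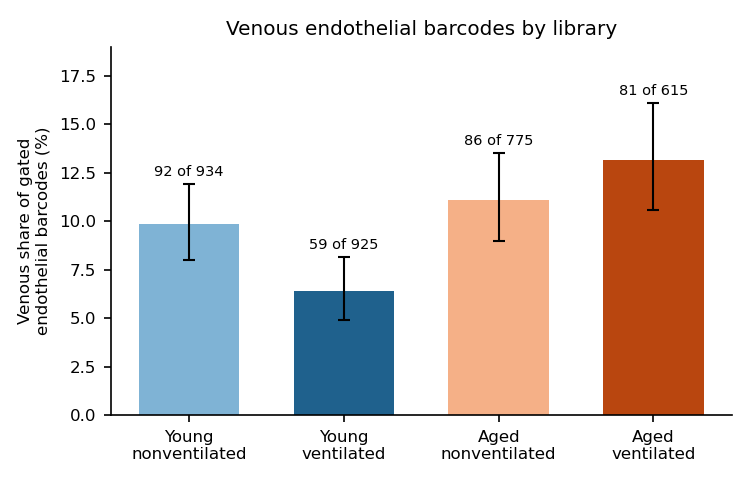
Venous cells as a percentage of the gated endothelial barcodes of each library, with exact 95% counting intervals (error bars) and the numbers of cells above them. The young ventilated bar is the lowest at 6.38% and the aged ventilated bar the highest at 13.2%.

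Markers of other cells were searched in the members. Lung epithelial genes (9 on the list) summed to 195, 808, 2488 and 184 CPM. The single highest member held 7.92%, 41.8%, 88.9% and 9.6% of these UMIs. In the aged nonventilated library the most abundant gene of the list was *Sftpc*, the surfactant protein of alveolar type II cells (1982 CPM). The same library held the myeloid and type II lysozyme gene *Lyz2* at 381 CPM, with 94.9% of its UMIs in 1 barcode. In the young ventilated library the most abundant epithelial gene was *Scgb1a1*, the secretory protein of club cells (199 CPM). Members in which at least 0.5% of the UMIs came from the list numbered 0, 2, 2 and 0, and the counts of genes past 2-fold in each comparison, those past 2-fold at both ages and the interferon list counts were taken again without them. Of the 13 hematopoietic genes 4, 6, 2 and 4 were at 0. Fibroblast, mural, hematopoietic and mesothelial lists summed to at most 166, 165, 413 and 84.2 CPM in any library, and the cardiomyocyte and the erythroid and platelet lists to at most 13.2 and 20.3 CPM. The remaining endothelial cells, the class used for comparison, were not free of such signal either. In them the epithelial list summed to 13421, 828, 2355 and 1703 CPM and the hematopoietic list to 405, 106, 359 and 261 CPM. The lymphatic list summed to 1042, 1522, 847 and 2294 CPM, nearly all of it *Lyve1*, which the other endothelial classes held as well. Of the cell barcodes, 23 were deposited in more than 1 library and 10 passed the quality limits in more than 1, but none was a member in 2 libraries.

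Beside *Selp*, *Vwf* and *Cpe*, a set of genes was higher in venous cells than in the remaining endothelial cells of every library. Of 2851 genes with at least 50 CPM in all 4 venous samples, 139 had their lowest venous level above the highest level of the remaining cells, and 22 did so by 2-fold or more. These values describe cells that the rule had already set apart, and no test was made of them. They included *Vcam1*, *Ptgs2* (the inducible cyclooxygenase, 158 to 455 against 4.24 to 24.3 CPM) and the scavenger receptor *Colec12* (111 to 159 against 7.99 to 14.9 CPM). The innate sensing genes *Lbp*, encoding the lipopolysaccharide-binding protein, and *Il1r1*, the interleukin-1 receptor, stood at 136 to 239.9 and 105 to 218 CPM, against 40.6 to 48.3 and 34.6 to 49.4 CPM. The matrix gene *Bgn*, encoding biglycan, was at 148 to 248 CPM against 16.4 to 23.4 CPM, and *Cytl1*, a secreted cytokine-like protein, at 58.1 to 163 against 1.31 to 4.46 CPM. *Vcam1*, *Cytl1* and *Bgn* were also found in arterial cells (54.8 to 1212, 60.3 to 143 and 43.9 to 211 CPM), and *Lbp*, *Colec12* and the GATA cofactor gene *Zfpm2* in lymphatic cells (107 to 339, 116 to 205 and 256 to 647 CPM).

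In the other direction, 168 of 2996 genes were lower in every venous sample than in any sample of the remaining cells, 3 of them by 2-fold or more. *Sparcl1*, a matricellular protein gene, was at 19.5 to 46.7 CPM in venous and 98.6 to 165 CPM in the remaining cells, and highest in arterial cells (204 to 289 CPM). The Notch ligand gene *Dll4*, active in arterial and angiogenic endothelium, was at 25.3 to 65.5 against 93.2 to 204 CPM. The stem cell factor receptor gene *Kit*, a general capillary marker, was at 172 to 228 against 316 to 449 CPM, so that it was lower in venous cells but not absent. *Car4*, the membrane carbonic anhydrase of aerocytes, was at 35.3 to 71.7 CPM, against 659.5 to 1380.2 CPM in aerocytes.

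Ventilation was followed by large shifts at both ages. In young venous cells, 323 of 3693 tested genes rose (8.75%) and 328 fell (8.88%), 94 and 64 of them by 4-fold or more. In aged venous cells, 200 of 3625 rose (5.52%) and 297 fell (8.19%), 37 and 44 of them by 4-fold or more. The median log2 ratio over all tested genes was -0.02 in young and -0.03 in aged cells. These 2 comparisons share no library. Of the 3425 genes tested at both ages, 118 rose at both, which were 43.2% of the 273 that rose in young and 64.1% of the 184 that rose in aged cells. Likewise 171 of these 3425 genes fell at both ages, 56.2% of the 304 that fell in young and 63.3% of the 270 that fell in aged cells. Over these genes, which are not independent, the log2 ratios of the 2 ages had a Pearson correlation of 0.748. The log2 ratios of the 2 ages were at least 1 apart in 229 of them, a difference that was not tested. On the GRCm38 assembly, the genes that recur below lie at chromosome 1, 164115264 to 164150026, plus strand (*Selp*), chromosome 3, 116109949 to 116129688, minus strand (*Vcam1*), chromosome 1, 173331886 to 173333750, minus strand (*Ackr1*), chromosome 8, 94179082 to 94180327, plus strand (*Mt1*) and chromosome 8, 72319033 to 72321656, plus strand (*Klf2*).

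**Figure D4:**
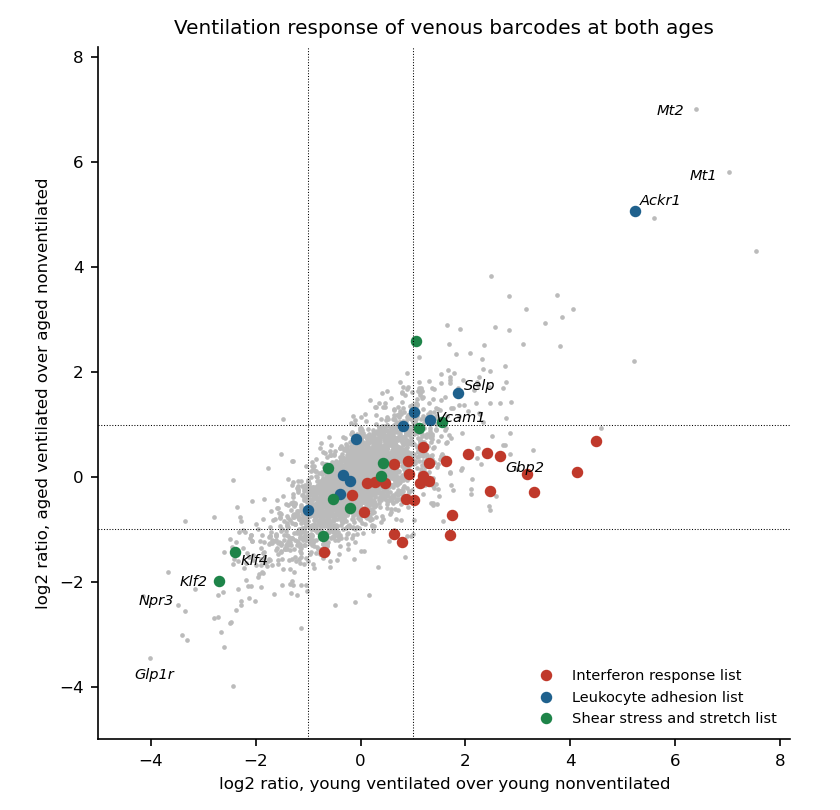
Log2 ratios of ventilated over nonventilated venous cells for the 3425 genes tested at both ages (1 gray point per gene), in young (x axis) and aged mice (y axis), with 3 gene lists colored; dotted lines mark 2-fold. *Selp*, *Vcam1* and *Ackr1* lie high on both axes and *Klf2* and *Klf4* low on both, while the interferon genes spread along the x axis.

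Among the leukocyte adhesion genes, *Selp*, *Vcam1*, *Sele* and *Ackr1* rose at both ages, while *Icam1* and *Icam2* were lower without passing 2-fold (*Icam2* in young cells was at the limit, with a log2 ratio of -0.99 after the added UMI). On the list of 15, 5 of 11 tested genes rose and 0 fell in young cells (median log2 ratio 0.82), and 4 of 10 rose and 0 fell in aged cells (median 0.85), where 8.75% and 5.52% of all tested genes rose. *Selp* was at 594 CPM in young nonventilated, 2156 in young ventilated, 859 in aged nonventilated and 2612 in aged ventilated cells, with no overlap between the 2 ventilated and the 2 nonventilated samples. It rose 3.63-fold (interval 3.33 to 3.96) at the young age and 3.04-fold (interval 2.83 to 3.26) at the old age. After thinning, *Selp* was detected in 30.2%, 62.5%, 27.5% and 72.2% of venous cells, and the median cell held 0, 2, 0 and 4 UMIs of it. The tenth of the cells with most *Selp* held 74.1%, 41.6%, 82.8% and 44.8% of its UMIs, so that the gene was concentrated in fewer cells in the nonventilated libraries. *Vcam1* was at 517, 1288, 609 and 1301 CPM and rose 2.49-fold (interval 2.26 to 2.75) at the young age and 2.13-fold (interval 1.96 to 2.33) at the old age. *Sele*, encoding E-selectin, was at 66.6, 135, 72.6 and 174 CPM (82, 119, 86 and 236 UMIs), higher in both ventilated samples, and rose 2.03-fold (interval 1.52 to 2.73) at the young age and 2.39-fold (interval 1.86 to 3.1) at the old age. These rises did not all stay past 2-fold when the choice of members changed: with no arterial gene allowed in a member, the log2 ratio of *Selp* in aged cells was 0.88. Over the alternatives it went down to 0.79 for *Vcam1* in young and 0.45 in aged cells, and to 0.65 and 0.4 for *Sele*.

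*Ackr1* encodes the atypical chemokine receptor of venules, which binds chemokines without signaling. It was close to absent before ventilation, with 6, 187, 5 and 232 UMIs, or 4.87, 213, 4.22 and 171 CPM. Both ventilated samples were far above both nonventilated ones, by 43.7-fold (interval 19.7 to 121) at the young age and 40.5-fold (interval 17.1 to 126) at the old age. The UMIs came from 11 of 59 young and 20 of 81 aged ventilated cells, and 26.2% and 19% of them from the single highest cell. In the remaining endothelial cells, *Ackr1* was at 0, 2.15, 0 and 2.63 CPM. The members with *Vegfc* and *Nr2f2* only held it at 0, 0, 0 and 36.2 CPM.

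The rest of the list varied. *Icam1*, whose product binds leukocyte integrins, was at 1020.4, 774, 1006 and 806 CPM, lower in both ventilated samples by less than 2-fold. *Icam2* was at 359.6, 179.8, 265 and 171 CPM and *Pecam1* at 1160.1, 920.5, 974 and 994 CPM. *Mcam*, a cell adhesion glycoprotein of vascular cells, was at 203, 358, 266 and 522 CPM, 1.77-fold (interval 1.49 to 2.09) higher in young and 1.96-fold (interval 1.72 to 2.25) higher in aged ventilated cells. *Alcam*, a ligand of CD6, rose in young cells (9.74, 122, 38.8 and 16.9 CPM), and 1 barcode held 60.7% of its young ventilated UMIs; with at most 5% mitochondrial UMIs per cell its log2 ratio was -0.43.

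Among the remaining endothelial cells *Selp* was at 13, 74.5, 8.21 and 89.3 CPM and *Vcam1* at 5.58, 102, 35.2 and 38.6 CPM. Arterial cells (69, 13, 56 and 19 cells) held *Vcam1* at 92.3, 1212, 54.8 and 559 CPM, as high in the young ventilated sample as in venous cells, but *Selp* at 61.9, 149.8, 13.7 and 159.8 CPM. The Weibel-Palade body list, which shares *Selp* and *Vwf* with these genes, gave no common direction, as 3 of 10 tested genes rose and 1 fell in young cells (median log2 ratio -0.04), and 1 of 8 rose and 1 fell in aged cells (median -0.28), with rises and falls over all tested genes of 8.75% and 8.88% in young and 5.52% and 8.19% in aged cells. *Vwf* itself was at 1932, 1343, 1809 and 1628 CPM, 1.44-fold (interval 1.34 to 1.54) and 1.11-fold (interval 1.05 to 1.18) higher in the nonventilated samples.

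**Figure D5:**
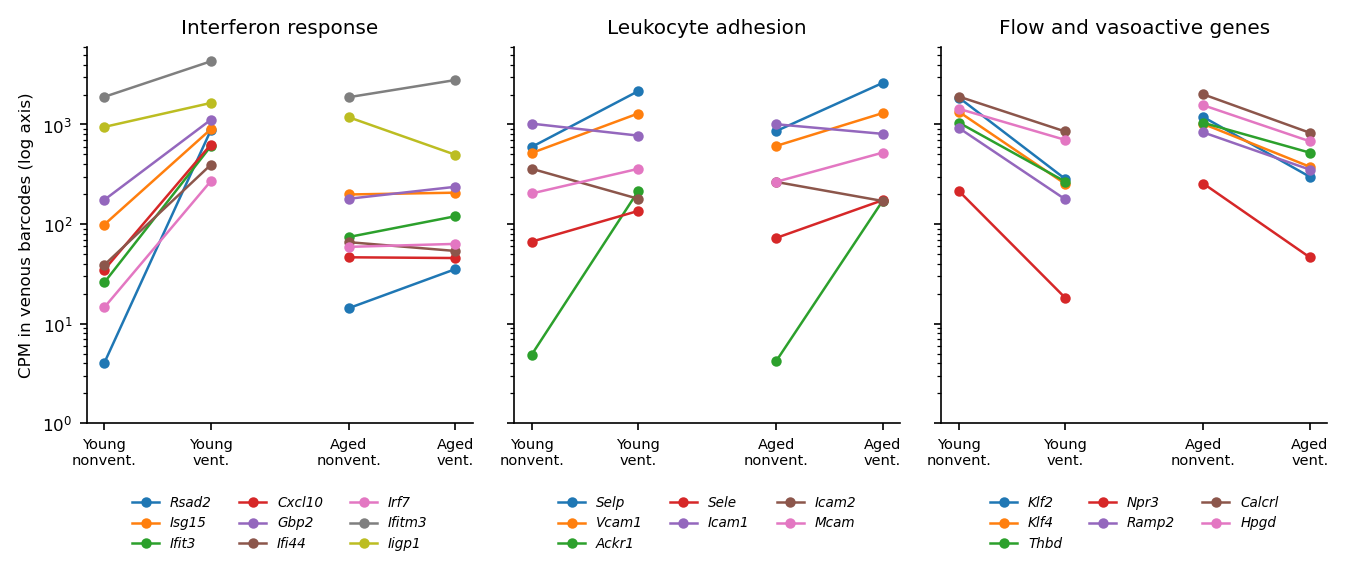
Levels (CPM, log axis) of single genes in venous cells of the 4 libraries, with a line joining the nonventilated and the ventilated library of each age. The interferon genes climb more steeply in the young pair than in the aged pair, *Selp*, *Vcam1* and *Ackr1* climb in both, and *Klf2*, *Klf4*, *Thbd* and *Npr3* drop in both.

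Among the 12 largest rises at both ages were those of *Mt1*, *Mt2* and *Lcn2*. The metallothionein genes, whose products bind zinc and copper, went from near absence to high levels: *Mt1* was at 6.49, 953, 38.8 and 2232 CPM and *Mt2* at 5.68, 546, 8.44 and 1194 CPM. *Mt1* rose 147-fold (interval 74.2 to 341) at the young age and 57.5-fold (interval 43 to 78.7) at the old age. *Lcn2*, encoding the iron-scavenging lipocalin-2, had 0, 132, 12 and 296 UMIs and rose at both ages. In young cells it came to 61.7-fold above a floor of 3 UMIs, and the counting interval on the ratio began at 49.5. In aged cells *Lcn2* rose 21.5-fold (interval 12.1 to 42.1). Of its aged nonventilated UMIs, 83.3% were in 1 barcode, and its aged log2 ratio of 4.32 ran from 3.95 to 6.84 over the alternatives. The acute-phase gene *Serpina3n* had 0, 81, 2 and 381 UMIs. It rose 166-fold (interval 45.7 to 1376) in aged cells. In young cells its mean was under 50 CPM, so that it was not among the tested genes there. Its young ventilated level was 37.8-fold above the floor of 3 UMIs. Its relative *Serpina3g* was at 34.1, 580.3, 73.4 and 686 CPM and rose 17-fold (interval 12.4 to 23.9) at the young age and 9.35-fold (interval 7.5 to 11.8) at the old age. In the remaining endothelial cells *Mt1* was at 14.1, 1087, 75.4 and 1846 CPM, and *Lcn2* at 12.3, 32.4, 7.77 and 27.6 CPM, below the 2 ventilated venous samples. After thinning, *Lcn2* was detected in 0%, 21.4%, 2.5% and 24.1% of venous cells and 0%, 15.5%, 0% and 13.3% of aerocytes.

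Other genes with large rises at both ages were *Ak8*, an adenylate kinase gene, at 1.62, 116, 2.53 and 102 CPM, and *Noct*, encoding the phosphatase nocturnin, at 28.4, 390.3, 38.8 and 437 CPM. *Olr1*, the scavenger receptor for oxidized lipoprotein, was at 5.68, 240.1, 21.1 and 101 CPM and *Itgb3*, the integrin β3 subunit, at 17.9, 104, 9.28 and 143 CPM. In all 4 of these genes both ventilated samples lay above both nonventilated ones. The highest single cell held 37.3% of the *Ak8*, 33.6% of the *Olr1* and 21.6% of the *Noct* UMIs of the young ventilated sample.

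Genes of clotting and its control gave these values. *Thbd*, encoding thrombomodulin, the thrombin receptor that turns clotting off, was at 1045, 267, 1039.8 and 522 CPM and was 3.91-fold (interval 3.4 to 4.51) lower in young and 1.99-fold (interval 1.82 to 2.19) lower in aged ventilated cells. *Plat*, the tissue plasminogen activator, was at 13, 46.7, 21.1 and 149 CPM and highest in the aged ventilated sample. *F3*, encoding tissue factor, had 0, 54, 0 and 3 UMIs, all but a few in the young ventilated sample, where 1 barcode held 66.7%. On the list of 24, 1 of 8 tested genes rose and 2 fell in young cells (median log2 ratio -0.07), and 3 of 10 rose and 0 fell in aged cells (median 0.45). Of all tested genes, 8.75% and 8.88% in young and 5.52% and 8.19% in aged cells rose and fell.

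Matrix genes and genes of their turnover moved in both directions. *Col4a1* and *Col4a2*, the basement membrane collagens, were at 472, 989, 430.4 and 1096 CPM and 289.8, 616, 278 and 716 CPM, each more than 2-fold higher after ventilation at both ages. With at least 3 venous genes required in a member, their young log2 ratios were 0.81 and 0.91, under 2-fold. *Timp3*, a matrix-bound inhibitor of metalloproteinases, was at 1417, 2792, 2117 and 6510.2 CPM, with the aged ventilated sample 2.33-fold (interval 2.23 to 2.44) above the young ventilated one. After thinning, the log2 ratio of *Timp3* between these 2 samples was 0.79, under 2-fold. *Adamts4*, a proteoglycan-cleaving protease gene, was at 8.12, 124, 17.7 and 104 CPM and rose 15.3-fold (interval 8.0 to 32.8) at the young age and 5.9-fold (interval 3.71 to 9.82) at the old age. *Eln*, encoding elastin, went the other way, at 222, 11.4, 169.6 and 34.6 CPM, falling by 19.5-fold (interval 10.5 to 41.2) at the young age and 4.91-fold (interval 3.56 to 6.89) at the old age. *Fbln5*, needed for elastic fiber assembly, was at 87.7, 13.7, 43 and 17.7 CPM. On the matrix list, 4 of 11 tested genes rose and 2 fell in young cells (median log2 ratio 0.47), and 4 of 10 rose and 1 fell in aged cells (median 0.69), and on the metalloproteinase list, 1 of 8 tested genes rose and 1 fell in young cells (median log2 ratio 0.12), and 2 of 8 rose and 0 fell in aged cells (median 0.23). Of all tested genes, 8.75% and 8.88% in young and 5.52% and 8.19% in aged cells rose and fell.

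The flow-responsive *Klf2* and *Klf4* were lower after ventilation. They encode transcription factors that laminar flow keeps high in endothelium. *Klf2* was at 1864 CPM in young nonventilated, 284 in young ventilated, 1187 in aged nonventilated and 299 in aged ventilated cells. It fell by 6.55-fold (interval 5.75 to 7.5) at the young age and 3.97-fold (interval 3.55 to 4.45) at the old age. *Klf4* was at 1343, 254, 1013 and 377 CPM and fell by 5.29-fold (interval 4.6 to 6.11) at the young age and 2.69-fold (interval 2.42 to 2.99) at the old age. The mechanosensitive channel genes *Piezo1* and *Piezo2* were at 222, 154, 272 and 202 and 327, 284, 254 and 169 CPM, without a 2-fold difference after ventilation. The stretch-responsive genes *Ccn1* and *Ccn2* were at 109.6, 323, 154 and 317 and 60.1, 131, 73.4 and 142 CPM, higher in both ventilated samples. On the whole shear stress and stretch list, 3 of 11 tested genes rose and 2 fell in young cells (median log2 ratio -0.2), and 2 of 11 rose and 3 fell in aged cells (median 0.01). The shares over all tested genes that rose and fell were 8.75% and 8.88% in young and 5.52% and 8.19% in aged cells.

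Several receptors for vasoactive peptides fell along with them. *Npr3*, the clearance receptor of natriuretic peptides, was at 215, 18.2, 255 and 46.4 CPM and fell by 11.8-fold (interval 7.14 to 21) at the young age and 5.5-fold (interval 4.18 to 7.33) at the old age. *Npr1*, the signaling receptor of the same peptides, was at 131, 37.5, 141 and 45.6 CPM. The adrenomedullin receptor is built of *Calcrl* and *Ramp2*, which were at 1909, 851, 2005 and 826 CPM and 924, 177, 832 and 352 CPM, falling by 5.2-fold (interval 4.4 to 6.19) at the young age and 2.36-fold (interval 2.11 to 2.64) at the old age for *Ramp2*. *Glp1r*, the receptor of glucagon-like peptide 1, was at 368, 21.6, 267 and 23.5 CPM and fell by 17-fold (interval 10.8 to 28.5) at the young age and 11.3-fold (interval 7.86 to 16.8) at the old age. It is also on the general capillary list, and its log2 ratios in the remaining endothelial cells were -3.74 in young and -2.56 in aged mice. *Hpgd*, the enzyme that inactivates prostaglandins, was at 1438, 701, 1559 and 678 CPM, while *Ptgs2* was at 213, 455, 158 and 375 CPM and rose 2.14-fold (interval 1.83 to 2.51) at the young age and 2.37-fold (interval 2.0 to 2.82) at the old age. With at most 5% mitochondrial UMIs per cell, the log2 ratio of *Ptgs2* in aged cells turned to -0.19. The young rise of *Ptgs2* came under 2-fold in 5 of the 15 alternatives, with a log2 ratio of 0.44 in the lowest. The young falls of *Calcrl* and *Hpgd*, with log2 ratios of -1.16 and -1.03, came under 2-fold in 4 and 6 of the 15 alternatives, at -0.84 and -0.58 in those nearest 0, and the aged fall of *Hpgd* in 1. On the prostanoid and vasoactive list, 1 of 15 tested genes rose and 6 fell in young cells (median log2 ratio -0.68), and 1 of 15 rose and 7 fell in aged cells (median -0.35). Beside this stand the shares of all tested genes that rose and fell, 8.75% and 8.88% in young and 5.52% and 8.19% in aged cells.

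Several genes of angiopoietin and VEGF signaling fell as well. *Tek*, the angiopoietin receptor Tie2, was at 748, 241, 611 and 260.5 CPM, and *Ptprb*, the phosphatase VE-PTP that restrains it, at 2774, 735, 2148 and 917 CPM, falling by 3.77-fold (interval 3.47 to 4.11) at the young age and 2.34-fold (interval 2.19 to 2.51) at the old age. *Nrp1*, a VEGF co-receptor, was at 454, 104, 363 and 125 CPM. *Kdr*, encoding VEGFR-2, was at 286, 129, 228 and 154 CPM. Its aged difference was under 2-fold, and its young log2 ratio of -1.14 became -0.63 with at most 5% mitochondrial UMIs and -0.3 after thinning. On the VEGF and angiopoietin-Tie list, 1 of 10 tested genes rose and 6 fell in young cells (median log2 ratio -1.11), and 0 of 8 rose and 4 fell in aged cells (median -0.94). Over all tested genes the shares that rose and fell were 8.75% and 8.88% in young and 5.52% and 8.19% in aged cells. The venous receptor gene *Ephb4*, partner of ephrin-B2, was at 261, 42.1, 207 and 76.5 CPM and fell by 6.19-fold (interval 4.4 to 8.95) at the young age and 2.7-fold (interval 2.14 to 3.43) at the old age. Its aged fall came under 2-fold with at most 5% mitochondrial UMIs and after thinning, at a log2 ratio of -0.89 in the one nearer 0. The venous protease gene *Prss23* was at 597, 121, 368 and 216 CPM and fell by 4.95-fold (interval 4.04 to 6.13) in young cells. In aged cells *Prss23* was 1.7-fold (interval 1.46 to 1.98) lower, under 2-fold. The list of other venous markers, to which *Vwf*, *Prss23*, *Ephb4* and *Ackr1* belong, gave 2 rises and 3 falls among 12 tested genes in young and 2 rises and 3 falls among 12 in aged cells.

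Further large falls were in genes of varied function. *Kirrel3* and *Cmah* were at 276, 13.7, 65.8 and 12.5 CPM and 299, 28.4, 87.8 and 48.6 CPM, with 34.1% and 63.3% of their young nonventilated UMIs in 1 barcode. *Hmcn1*, encoding the extracellular protein hemicentin-1, was at 1009, 158, 1130.1 and 144 CPM and fell by 6.38-fold (interval 5.35 to 7.66) at the young age and 7.84-fold (interval 6.74 to 9.15) at the old age. It is on the general capillary list. *Tmem100*, a membrane protein gene induced by BMP signaling, was at 813, 78.5, 862 and 145 CPM and *Clec14a*, an endothelial lectin gene, at 525, 75.1, 486 and 75.1 CPM. *St6galnac3*, a sialyltransferase gene, was at 423, 38.7, 424 and 51.5 CPM. The retinoic acid receptor gene *Rarb* was at 203, 19.3, 126 and 14 CPM, and the mineralocorticoid receptor gene *Nr3c2* at 109.6, 19.3, 139 and 8.09 CPM, both lower in each ventilated sample than in each nonventilated one. *Kcnq1*, a potassium channel gene, was at 101, 6.83, 95.4 and 26.5 CPM, *Antxr1* at 101, 10.2, 128 and 28.7 CPM and *Rflnb* at 94.2, 6.83, 64.1 and 11 CPM. *Rnf144a*, *Specc1* and *Sept4* were at 261, 42.1, 290.3 and 30.2 CPM, 208, 36.4, 203 and 29.4 CPM and 88.5, 14.8, 96.2 and 13.2 CPM. *Nckap5* was at 1853, 844, 2267 and 306 CPM, and fell by 2.2-fold (interval 2.02 to 2.39) at the young age and 7.41-fold (interval 6.68 to 8.23) at the old age. Caveolar genes were lower too: *Cav1*, *Cavin2* and *Cav2* were at 1092, 396, 796 and 441 CPM, 1559, 356, 1317 and 266 CPM and 275, 63.7, 188 and 87.6 CPM. On the caveola and scavenger list, 1 of 11 tested genes rose and 6 fell in young cells (median log2 ratio -1.25), and 2 of 10 rose and 2 fell in aged cells (median -0.59). Rises and falls over all tested genes were 8.75% and 8.88% in young and 5.52% and 8.19% in aged cells. In the remaining endothelial cells, *Klf2* was at 1324, 211, 996 and 268 CPM, *Npr3* at 337, 19.5, 334 and 101 CPM and *Hmcn1* at 1308, 110.1, 1101 and 209.8 CPM.

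The 2 ages parted in the genes induced by interferon. On the list of 36, 19 of 31 tested genes rose and 0 fell in young ventilated cells, with a median log2 ratio of 1.2 (all tested genes -0.02). In aged ventilated cells 0 of 30 rose and 4 fell, with a median of -0.08. Rises and falls took 8.75% and 8.88% in young and 5.52% and 8.19% in aged cells of all tested genes. Summed over the list, the level was 7279, 17432, 8174 and 7630.1 CPM in venous and 7003, 16612, 6696 and 6766 CPM in the remaining endothelial cells, so that the young ventilated sample stood apart in both.

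Many interferon-induced genes carry the interferon-stimulated response element, to which IRF transcription factors bind. Its core, the letters GAAA, any 2 bases and GAAA again, was searched on both strands of the 300 bases around each annotated start site (250 before and 50 after it, sequences from RefSeq, build GRCm38.p6). It was found in 3.44% of all 32851 promoters, and in a promoter of 3.99% of all 27025 genes. Of the 36 genes on the interferon list, 30 had a promoter in that table and 17 of these held the core. Of the 19 genes that rose in young cells, 17 had a promoter and 11 held it. A match is a description of the letters and not of a bound site. The stretches of 60 bases with the core in capitals are shown for the 4 genes followed below, 5′ to 3′ on the gene's own strand:
*Rsad2* (chr12:26456538-26456597, minus strand): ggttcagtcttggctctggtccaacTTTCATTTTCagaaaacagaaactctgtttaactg
*Isg15* (chr4:156200856-156200915, minus strand): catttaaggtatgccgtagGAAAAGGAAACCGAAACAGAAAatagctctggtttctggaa
*Ifit3* (chr19:34583365-34583424, plus strand): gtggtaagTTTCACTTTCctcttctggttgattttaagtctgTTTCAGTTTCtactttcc
*Cxcl10* (chr5:92349068-92349127, minus strand): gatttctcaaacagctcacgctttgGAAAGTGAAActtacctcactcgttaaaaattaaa
Matches overlap in the *Isg15* stretch, where they run together as 1 block of capitals, and the capitals that begin and end with TTTC in *Rsad2* and *Ifit3* are the core on the opposite strand.

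*Rsad2*, encoding the antiviral enzyme viperin, was at 4.06 CPM in young nonventilated, 873 in young ventilated, 14.3 in aged nonventilated and 35.3 in aged ventilated cells, and only the young ventilated sample was high. It rose 215-fold (interval 91.7 to 664) in young cells. The difference between the ages in the log2 response was 6.24 (interval 4.84 to 7.64). *Cxcl10*, the chemokine that draws CXCR3-bearing lymphocytes, was at 34.9, 628, 46.4 and 45.6 CPM and rose 18-fold (interval 13.2 to 25.1) in young cells, with a difference between the ages of 4.17 (interval 3.48 to 4.85). *Isg15*, the ubiquitin-like protein, was at 99, 895, 198 and 207 CPM, and *Ifit3*, a binder of viral RNA complexes, at 26, 604, 74.3 and 119.9 CPM. They rose 9.04-fold (interval 7.46 to 11) and 23.3-fold (interval 16.3 to 34.4) in young cells. The transcription factor gene *Irf7* was at 14.6, 269.7, 59.1 and 63.3 CPM.

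The guanylate-binding proteins, GTPases of host defense, were also highest in the young ventilated sample. *Gbp2* was at 175, 1114, 179.8 and 237 CPM and differed between the ages by 2.27 (interval 1.94 to 2.59) in its log2 response. *Gbp3*, *Gbp5* and *Gbp7* were at 77.9, 415, 77.6 and 107 CPM, 121, 405, 189 and 115 CPM and 281, 692, 239.7 and 227 CPM. *Ifi44* was at 39, 394, 65.8 and 53.7 CPM, *Cmpk2* at 14.6, 258, 20.3 and 33.8 CPM, *Isg20* at 7.31, 127, 9.28 and 17.7 CPM, *Ifi204* at 2.44, 148, 18.6 and 16.9 CPM and *Ifit3b* at 3.25, 118, 20.3 and 16.2 CPM, each highest in the young ventilated sample. *Ifit3b* and *Ifit3* are close copies, and how reads were split between them is uncertain. Genes of the list that fell in aged cells included *Irf1* (866, 537, 949 and 349 CPM) and *Iigp1* (946, 1645, 1181 and 497 CPM). The class I peptide transporter subunits *Tap1* and *Tap2* were at 105, 196, 100.4 and 125 and 86.1, 193, 84.4 and 113 CPM, while over the MHC list 2 of 18 tested genes rose and 0 fell in young cells (median log2 ratio -0.02), and 0 of 18 rose and 0 fell in aged cells (median -0.02), where rises and falls over all tested genes were 8.75% and 8.88% in young and 5.52% and 8.19% in aged cells.

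Between the ventilated libraries, 29 of 3568 tested genes were at least 2-fold higher in aged cells (0.813%) and 127 at least 2-fold lower (3.56%). Interferon genes made up 19 of those that were lower, out of 32 tested. Among those that were higher in aged ventilated cells were *Inhbb*, a subunit of activin B (25.2, 45.5, 5.91 and 174 CPM), *Serpina3n* and *Plat*. The difference in *Plat* came under 2-fold in 3 of the 15 alternatives, with a log2 ratio of 0.7 in the lowest. *Col18a1*, the collagen that yields endostatin, was at 12.2, 15.9, 11 and 84.6 CPM, and *Krt80*, a keratin gene, at 69.8, 17.1, 149 and 97.1 CPM. *Dysf*, encoding the membrane repair protein dysferlin, was at 40.6, 22.8, 38.8 and 80.9 CPM. Its log2 ratio between the ventilated libraries was 1.77. That difference came under 2-fold in 2 of the 15 alternatives, thinning among them, with a log2 ratio of 0.2 in the lowest. The venous rule gene *Slc6a2* also belonged to this set. The glutathione synthesis gene *Gclc* was at 24.4, 605, 51.5 and 99.3 CPM, with 85.9% of its young ventilated UMIs in 1 barcode, and *Slc4a4*, a bicarbonate transporter gene, at 0, 115, 0.844 and 2.21 CPM, with 71.3% of them in 1 barcode.

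Without ventilation, venous cells of the 2 ages differed in few genes. Of 3748 tested genes, 33 were at least 2-fold higher in aged cells (0.88%) and 22 at least 2-fold lower (0.587%). In *Sftpc*, *Sftpa1* and *Lyz2*, which were higher in aged nonventilated cells, 1 barcode held 97.8%, 96.7% and 94.9% of the UMIs of that sample. *Sftpa1* was at 1.62, 5.69, 154 and 2.21 CPM. The log2 ratio of *Sftpc* was 7.01 and stayed past 2-fold in every alternative, at 1.35 in the lowest, while *Sftpa1* lost it in 1 and *Lyz2* in 8. *Sftpc* and *Sftpa1* are on the epithelial list, which made up 8.88% of the UMIs of the highest aged nonventilated member. Whether their UMIs in the other members came from venous cells was not tested. Of the interferon list, 2 of 28 tested genes were at least 2-fold higher in aged nonventilated cells and 0 lower (median log2 ratio 0.08). They were *Ifit1*, at 73.1, 406, 199 and 165 CPM, and *Ifit3*, at 26, 604, 74.3 and 119.9 CPM. *Ifi27l2a*, which is not on that list, was at 21.9, 56.9, 97.9 and 25.8 CPM. *Gbe1*, the glycogen branching enzyme, was at 68.2, 124, 177 and 179.5 CPM. *Thbs1*, encoding thrombospondin-1, was lower in aged nonventilated cells, at 123, 164, 25.3 and 78.7 CPM (152, 144, 30 and 107 UMIs). *Cpe* and *Cytl1* were lower in aged nonventilated than in young nonventilated cells as well, by 3.05-fold (interval 2.3 to 4.09) and 2.72-fold (interval 2.07 to 3.62), as was the apelin receptor gene *Aplnr* (95.8, 26.2, 33.8 and 11 CPM). *Tagln*, a smooth muscle gene, was at 95, 46.7, 6.75 and 29.4 CPM, with 76.9% of its young nonventilated UMIs in 1 barcode. Of the 20 genes named in this text with a 2-fold difference between the nonventilated samples, 5 kept it in every alternative (*Sftpc*, *Tagln*, *Kirrel3*, *Cpe* and *Ifi27l2a*), and those lost under at least 1 included *Thbs1*, *Aplnr*, *Cytl1*, *Ifit1*, *Ifit3* and *Gbe1*.

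The other lists were described by their counts. These stand beside the shares of all tested genes that rose and fell, 8.75% and 8.88% in young and 5.52% and 8.19% in aged cells, and a count near those shares is not a result about its list. For the NF-κB feedback genes, 3 of 16 tested genes rose and 0 fell in young cells (median log2 ratio 0.2), and 3 of 16 rose and 1 fell in aged cells (median 0.04): the inhibitor gene *Nfkbia* was at 921, 1022, 977 and 1067 CPM and *Tnip1*, a partner of A20, at 77.9, 372, 117 and 397 CPM. For chemokines, cytokines and their receptors, 4 of 10 tested genes rose and 1 fell in young cells (median log2 ratio 0.51), and 0 of 8 rose and 2 fell in aged cells (median 0.59). *Il4ra*, the interleukin-4 receptor, was at 209, 468, 278 and 528 CPM and *Cxcl12* at 170.5, 66, 271 and 103 CPM. For junction and barrier genes, 1 of 21 tested genes rose and 3 fell in young cells (median log2 ratio -0.14), and 2 of 20 rose and 2 fell in aged cells (median -0.33). *Cldn5*, the main endothelial claudin, was at 1052, 1082, 1220.4 and 1426 CPM, and *S1pr1* and *Rasip1*, both needed for barrier function, at 511, 998, 504 and 1198 CPM and 516, 1008, 509 and 1239 CPM. *Jup*, encoding plakoglobin, was at 305, 63.7, 295 and 116 CPM. For stress and oxidative response genes, 6 of 9 tested genes rose and 0 fell in young cells (median log2 ratio 1.73), and 2 of 7 rose and 0 fell in aged cells (median 0.74).

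In the lists that follow, the same shares over all tested genes apply (8.75% and 8.88% in young and 5.52% and 8.19% in aged cells). For BMP and TGF-β genes, 0 of 15 tested genes rose and 4 fell in young cells (median log2 ratio -0.36), and 2 of 16 rose and 3 fell in aged cells (median -0.28). *Acvrl1*, encoding the endothelial receptor ALK1, was at 653, 255, 663 and 294 CPM, and the inhibitory *Smad6* and *Smad7* at 248, 81.9, 386 and 159.7 and 244, 85.3, 271 and 136 CPM. For Notch and vessel fate genes, 0 of 10 tested genes rose and 5 fell in young cells (median log2 ratio -0.88), and 0 of 10 rose and 2 fell in aged cells (median -0.34). For immediate early genes, 0 of 17 tested genes rose and 2 fell in young cells (median log2 ratio -0.32), and 0 of 17 rose and 1 fell in aged cells (median -0.44), and *Egr1* and *Fos* were at 1664, 1387, 1689 and 1218 CPM and 1430.4, 1063, 913 and 856 CPM, high in every sample. For heat shock genes, 1 of 11 tested genes rose and 0 fell in young cells (median log2 ratio 0.26), and 2 of 10 rose and 0 fell in aged cells (median 0.4), with *Hspb1* at 203, 423, 92.8 and 564 CPM. For glucocorticoid response genes, 3 of 11 tested genes rose and 2 fell in young cells (median log2 ratio -0.08), and 2 of 11 rose and 0 fell in aged cells (median 0.00), with *Fkbp5* at 179, 342, 144 and 370.1 CPM.

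Beside the same 8.75% and 8.88% in young and 5.52% and 8.19% in aged cells over all tested genes, the remaining lists were counted. For p53 and senescence genes, 1 of 7 tested genes rose and 0 fell in young cells (median log2 ratio 0.49), and 2 of 8 rose and 0 fell in aged cells (median 0.25). *Cdkn1a*, the p21 cell cycle inhibitor, was at 283, 397, 360.4 and 431 CPM, and *Gadd45g* at 126, 395, 154 and 344 CPM. For clock genes, 0 of 6 tested genes rose and 1 fell in young cells (median log2 ratio -0.48), and 0 of 5 rose and 1 fell in aged cells (median -0.13). For fatty acid and lipoprotein genes, 2 of 7 tested genes rose and 2 fell in young cells (median log2 ratio 0.41), and 1 of 7 rose and 0 fell in aged cells (median -0.2), with the lipase gene *Lpl* at 36.5, 134, 61.6 and 202 CPM. For pan-endothelial genes, 0 of 11 tested genes rose and 5 fell in young cells (median log2 ratio -0.96), and 0 of 11 rose and 2 fell in aged cells (median -0.4). For general capillary genes, 1 of 8 tested genes rose and 5 fell in young cells (median log2 ratio -1.29), and 1 of 7 rose and 2 fell in aged cells (median -0.32). For other arterial genes, 1 of 8 tested genes rose and 6 fell in young cells (median log2 ratio -1.24), and 1 of 7 rose and 5 fell in aged cells (median -1.03). *Mgp*, a matrix protein gene of the arterial list, was at 166, 841, 210.1 and 433 CPM, but its log2 ratio in aged cells was -0.23 after thinning. For aerocyte genes, 1 of 4 tested genes rose and 1 fell in young cells (median log2 ratio -0.29), and 0 of 5 rose and 1 fell in aged cells (median -0.09), with *Kitl*, the ligand of *Kit*, at 170.5, 439, 307 and 508 CPM.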

How the data were processed

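Single-cell suspensions of frozen mouse lung were captured with the 10x Genomics 3′ chemistry, 1 library for each of the 4 groups. The authors deposited matrices of UMI counts for every gene and barcode. Per the labels of the submitters' processing notes they were made with Cell Ranger 7.0.0 on the mm10 build, and the gene names and barcodes were deposited in files beside them (15428 barcodes). The counts were not normalized. The 4 libraries held 41222284, 44404172, 45218176 and 40655452 UMIs.

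Barcodes with 200 to 7500 genes and at most 10% mitochondrial UMIs were kept, and 2942, 3327, 3025 and 2552 passed. UMIs of the members were summed per library and divided by their total (CPM). With 1 library per group no test, p-value or error between mice could be had. Shares carry Clopper-Pearson and ratios conditional binomial 95% intervals; the intervals on differences between 2 log2 ratios use the normal approximation to the counts. For a gene at 0 the floor was 3 UMIs per library (2.44, 3.41, 2.53 and 2.21 CPM). Thinning drew 4000 UMIs per barcode without replacement. Doublets were not removed, and leaving out the top 5% of Scrublet scores was an alternative. The script was tested on simulated data.

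Genes named were the 12 largest rises and falls per comparison (at least 20 UMIs in 1 library and UMIs in at least 5 member barcodes), the 20 genes highest or lowest against the remaining endothelial cells, the genes of the lists and those of the rule. The members, lists and alternatives were chosen with earlier results of these data known, and nothing here is independent support for them. The work used Python 3.11.15 with scanpy 1.11.5, pandas 2.3.3, scipy 1.17.1, numpy 2.4.6 and matplotlib 3.10.9. Gene positions come from the GENCODE annotation of GRCm38. Some items are not reported here.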

Additional observations from a re-analysis of the deposited data

Results flagged for a closer look

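Among the genes tested at both ages, 2 passed 2-fold in opposite directions after ventilation at the 2 ages. *Gbp6*, encoding a guanylate-binding protein, was at 90.9, 298, 101 and 46.4 CPM in venous cells (young without and with ventilation, then aged without and with it). The log2 ratio came to 1.71 at the young age, against -1.12 at the old age, a difference of 2.82 with a counting interval of 2.28 to 3.36. With every barcode thinned to 4000 UMIs before the rule was applied, the *Gbp6* ratios were 0.41 in young and -0.43 in aged cells.

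*Bace2*, encoding a membrane aspartyl protease, was at 90.9, 31.9, 44.7 and 97.9 CPM in the same order. Here the log2 ratio came to -1.48 at the young age, against 1.11 at the old age, a difference of -2.59 with a counting interval of -3.33 to -1.84. After thinning, the *Bace2* ratios were -0.47 in young and 0.53 in aged cells, and the aged one was 0.21 with at most 5% mitochondrial UMIs. The differences were not tested, since each group was 1 library, and both genes were picked from 3425 for this pattern.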

How the results depend on the processing

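Counts of changed genes were taken again under 15 alternatives and the shares of venous cells under 9 of them (those that change the members). Of the 15, 3 were chosen after seeing the data (only members with *Slc6a2* or *Bst1*; members with epithelial signal left out; the top barcode of each gene left out). No paired analysis was possible because each group is 1 library and all replicate numbers are 1, and for the same reason no replicate could be left out. The young ventilated share was the lowest of the 4 in each of those 9. In the library order of the report, the shares were 6.32%, 2.81%, 6.32% and 7.48% with at least 3 venous genes and 6.64%, 4.86%, 6.19% and 9.59% with no arterial gene. They were 7.28%, 4.76% and 8.77% in the first 3 of these libraries with only *Slc6a2* or *Bst1* members, 7.68% and 8.03% in the nonventilated libraries with at most 5% mitochondrial UMIs, and 4.59%, 7.73% and 9.11% in the last 3 after thinning.

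Under a filter at 20 CPM, 527 genes were at least 2-fold higher and 674 lower in young ventilated over nonventilated cells, 362 and 630 in aged ventilated over nonventilated, 103 and 67 in aged over young nonventilated, and 116 and 274 in aged over young ventilated cells, and 581 differed by 1 or more between the ages in the log2 response. Without a filter the counts were 3075 and 2590, 1402 and 4124, 2593 and 1093, 924 and 3145, and 4629. Thinned cells gave 188 falls in the aged ventilation comparison. Of the genes called as reported, thinned cells called again 49.2% of the rises and 47.3% of the falls after ventilation in young and 52.5% and 40.4% in aged cells. Of those higher and lower in aged than young cells they called again 15.2% and 31.8% without and 20.7% and 33.9% with ventilation. With no arterial gene, 378 genes differed between the ages in the log2 response. The small age counts moved most. Aged over young nonventilated, 60 genes were higher and 36 lower with at most 5% mitochondrial UMIs, 50 and 38 with at least 3 venous genes, 72 and 35 with no arterial gene, 39 lower with only *Slc6a2* or *Bst1* members, and 21 higher without the top barcode of each gene. Aged over young ventilated, 48 were higher under the 5000-gene limit, 76 with at most 5% mitochondrial UMIs, 82 with at least 3 venous genes, 52 with no arterial gene and 46 with only *Slc6a2* or *Bst1* members. The interferon list had 1 rise in aged cells with at most 5% mitochondrial UMIs, under both filters and without the top barcode. Of the genes named above, 69 of 94 with a 2-fold change in young and 50 of 73 in aged ventilated cells kept it in every alternative, against 5 of 20 in aged over young nonventilated and 22 of 35 in aged over young ventilated cells.

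Ratios of named genes turned direction in these cases (log2), and the cause was not tested. After ventilation, *Tagln* in young cells was 1.05 with at most 5% mitochondrial UMIs and 0.39 with no arterial gene, and *Alcam* -0.43 with at most 5% mitochondrial UMIs. In aged cells, *Ptgs2* was -0.19 with at most 5% mitochondrial UMIs, and *Sftpa1* 0.11 and *Mgp* -0.23 after thinning. *Lyz2* was 0.61, 0.55, 0.32, 0.60, 0.11, 0.16, 0.35 and 0.29 under the 5000-gene limit, at most 5% mitochondrial UMIs, at least 3 venous genes, no arterial gene, thinning, only *Slc6a2* or *Bst1* members, without epithelial signal and without the top barcode. Between the nonventilated libraries *Lyz2* was -0.37 after thinning. Between the ventilated libraries, *Alcam* was 0.78 with at most 5% mitochondrial UMIs, *Olr1* 0.18 under the same limit, *Thbs1* 0.14 after thinning, and *Gclc* 0.21, 0.0942, 0.0744 and 0.0942 under the 5000-gene limit, without the top 5% of Scrublet scores, with only *Slc6a2* or *Bst1* members and without epithelial signal. The young ventilated sample had the fewest cells (59) and UMIs.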
